A study of Mus musculus with 8 samples.

Results

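The 86 nuclear genes described here encode subunits of the mitochondrial respiratory chain and of ATP synthase. They were taken from 32287 gene features by symbol: those that start with Ndufa, Ndufb, Ndufc, Ndufs, Ndufv, Uqcr, Cox4i, Cox5, Cox6, Cox7, Cox8 or Atp5, together with the 4 Sdh genes and Cyc1, and without pseudogenes and Ndufaf assembly factors. No measured value entered that choice. The genes comprise 36 subunits of complex I, 4 of complex II, 9 of complex III, 20 of complex IV and 17 of complex V. Ndufa4, whose protein is found in complex IV, and its relative Ndufa4l2 carry complex I names and were counted with complex IV.

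The respiratory chain passes electrons from NADH and succinate through complexes I to IV to oxygen and pumps protons across the inner mitochondrial membrane, and complex V lets them back to make ATP. Most subunits are encoded in the nucleus and imported, while a small core is encoded by mitochondrial DNA. Heart muscle depends heavily on this pathway and uses its own isoforms of several complex IV subunits, whereas neutrophils are known for few mitochondria and a reliance on glycolysis.

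The data are single-cell RNA libraries (10x Genomics 3′ chemistry) of CD45+CD11b+ leukocytes sorted from blood and heart of 4 recipient mice. All recipients were Mx1Cre:c-Mybfl/fl mice, in which an interferon-inducible Cre can delete c-Myb, a gene that blood stem cells need. Their marrow was depleted and replaced by marrow of control donors (2 mice) or of donors that had had a stroke (2 mice). The host deletion and the transplant were therefore shared by both groups, and the heart can still hold host cells. Donor genotype, the stroke procedure, ages and times are not given in the sources used here. Heart and blood of a mouse carried different hashtag antibodies and shared a library, so organ was read within libraries and donor group between them. Replicates are single mice, and p-values measure the spread between these mice. Which library is which mouse rests on matching the barcode suffix to the sample number in the labels, an assumption under every value given by mouse group. Values for 4 mice are given below as control replicates 1 and 2, then stroke replicates 1 and 2.

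Libraries held 2020 to 3303 barcodes and 10067873 to 16513840 gene UMIs, with a median of 4005 to 4689 UMIs per barcode. Of 11130 barcodes, 14 barcode sequences occurred in more than 1 library. Ddx3y, on the Y chromosome, gave 599 UMIs in control replicate 1 and 1 to 3 in the other mice, whereas Xist gave 1 and 6472 to 13794, and marrow group and sex can therefore not be told apart fully. After filters the heart gave 642, 1408, 1487 and 1247 barcodes and the blood 1099, 963, 1351 and 1283. Stroke replicate 2 stood apart in blood, where 983 of its 1283 barcodes were B cell-like. Clusters were named from marker lists as "like" a class, and each class named below had UMIs of all its markers. Itgam, which encodes CD11b, was at 64.3 CPM (UMIs per 1000000 UMIs of the sum) in B cell-like and 574 in neutrophil-like barcodes, and Ptprc, which encodes CD45, was at 678 and 3329. In 16 cardiomyocyte-like heart barcodes Itgam was at 0 and Ptprc at 277 CPM, below the macrophage-like 618, and in endothelial-like barcodes they were at 2.86 and 5.72, so the sort does not describe these barcodes.

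Levels are CPM of the UMI sum of a mouse, organ and class. Because 3′ chemistry counts a molecule once whatever its length, levels of different genes are set side by side without a length correction. Whether molecules of different genes were captured and assigned equally well was not tested, so the order of genes is that of counted UMIs. Of the 86 genes, 84 had at least 10 UMIs, and 78 averaged at least 20 CPM over the 8 sums of all barcodes of an organ and mouse. Cox7b2 and Cox8c, isoforms known mainly from testis, had 0 UMIs. The other 6 below that level were Cox4i2, Ndufa4l2, Cox8b, Cox6b2, Cox7a1 and Cox6a2, with 18 to 401 UMIs. All are isoforms of complex IV subunits. By mean level Cox4i1 (660 CPM) and Cox8a (638), the ubiquitous complex IV subunits, came first, followed by the ATP synthase subunits Atp5e (545) and Atp5l (458). The complex III hinge protein Uqcrh was at 436 CPM and Uqcrq, a small complex III subunit, at 216. Complex I was led by the accessory subunits Ndufa13 (291 CPM) and Ndufb9 (221). In complex II, Sdhb, the iron-sulfur subunit, was at 110 CPM, Sdha, the flavoprotein, at 76.9, and the membrane anchor Sdhc at 39.3. These lay below the leading genes of the other complexes given here. Some genes of other complexes were lower than Sdhb and Sdha, such as Ndufs1 (30.3 CPM), Ndufa9 (40.1) and Uqcrc2 (70.2).

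Neutrophil-like barcodes held the smallest share of these transcripts in both organs. The summed level of the 86 genes was 7069, 6451, 6859 and 5945 CPM in blood neutrophil-like sums and 5321, 5781, 6779 and 5241 in heart ones. Blood classical monocyte-like sums held 17800, 20090, 20310 and 19830 CPM. All 8 neutrophil-like sums lay below the lowest of the other classes with at least 20 barcodes in every mouse. That was a heart nonclassical monocyte-like sum at 11420. Classes were formed from these cells, with the 86 genes kept out of the genes used for clustering, so class levels are a description with no test.

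The classes compared are those with at least 20 barcodes in every mouse, which leaves out cardiomyocyte-like, endothelial-like and T cell-like barcodes. In cardiomyocyte-like barcodes Cox4i1 was at 4108, 3706, 5324 and 5070 CPM, against 740, 800, 782.5 and 551 in all blood barcodes. Blood classical monocyte-like (19510 ± 1154 CPM, SD, n = 4 mice), blood type 2 dendritic cell-like (19220 ± 1412) and blood NK cell-like sums (17900 ± 632) were the highest compared. Their ranges overlapped, so the order among them is not fixed by these mice. In heart, classical monocyte-like (16880 ± 665), type 2 dendritic cell-like (16850 ± 1883) and NK cell-like sums (16180 ± 1085) also overlapped. Blood nonclassical monocyte-like (13860 ± 971), heart macrophage-like (13670 ± 520.4), heart B cell-like (13580 ± 481), blood B cell-like (13060 ± 975) and heart nonclassical monocyte-like sums (12310 ± 733) followed, each overlapping its neighbour in that order. The neutrophil-like sums averaged 6581 ± 496 in blood and 5781 ± 707 in heart. Total RNA differed in the same direction: a blood neutrophil-like barcode held 1923 UMIs on average, of which 12.7 were of these genes, and a blood classical monocyte-like barcode 5672, of which 111 were.

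**Figure D1:**
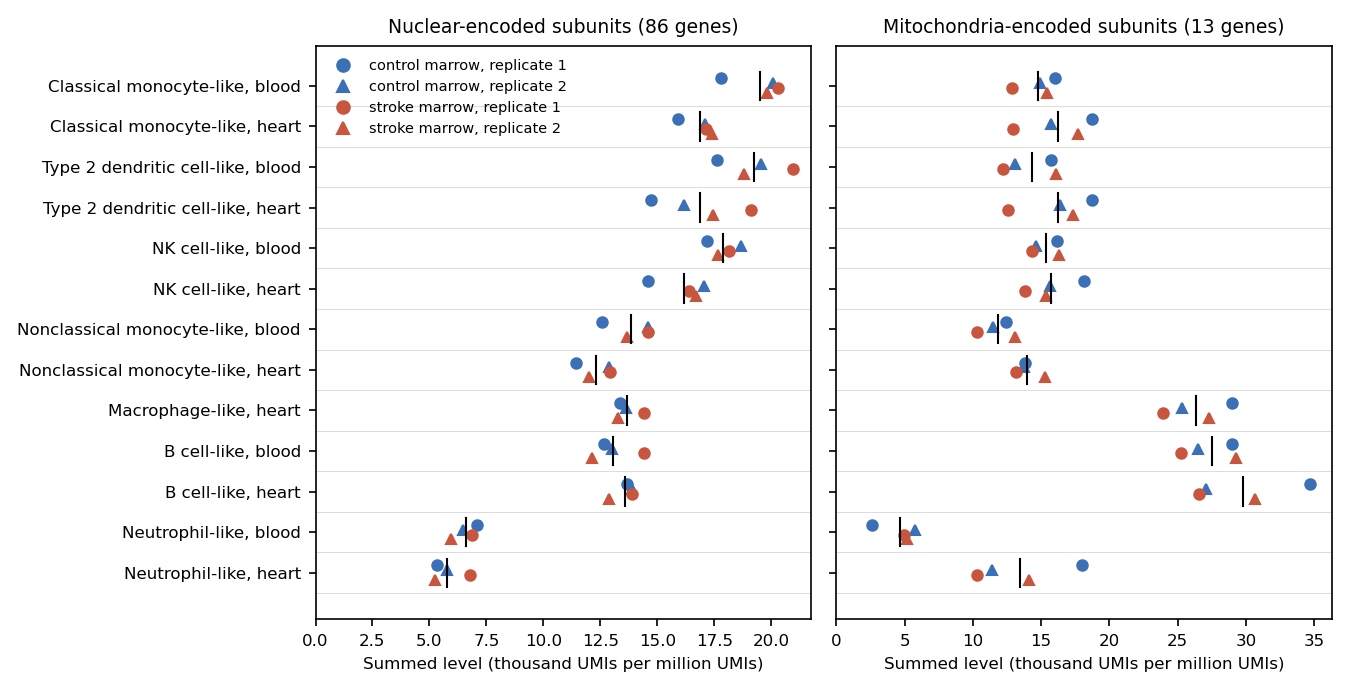
Summed level of the 86 nuclear subunit genes (left) and of the 13 mitochondria-encoded ones (right), in multiples of 1000 CPM on linear axes from 0, by class and organ, with 1 point per mouse and a line at the mean. In the left panel all 8 neutrophil-like sums lie between 5241 and 7069 CPM, below all other sums, which start at 11420.

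The low neutrophil-like level held in each complex, though not to the same degree. The median ratio of blood neutrophil-like to blood classical monocyte-like mean was 0.22 over the 36 complex I genes, 0.239 over the 17 complex V genes, 0.297 over the 9 complex III genes, 0.392 over 12 complex IV genes and 0.431 over the 4 complex II genes. In heart the medians were 0.266, 0.261, 0.313, 0.322 and 0.458 in the same order. Across all 78 genes above 20 CPM the median was 0.264 in blood and 0.283 in heart. For 73 of the 78 the lowest class mean was a neutrophil-like one. In 54 genes in blood, and 58 in heart, every neutrophil-like sum was below all sums of the other classes of that organ. These ratios and counts were not made over all genes, so whether they are particular to the subunit genes was not tested.

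Single genes of complex I covered the whole span. Ndufa11, an accessory subunit near the membrane arm's centre, was at 152, 163, 166 and 210 CPM in blood classical monocyte-like sums and at 1.22, 4.70, 5.57 and 11.3 in neutrophil-like ones. These 4 sums held 8 UMIs of Ndufa11 in all, the smallest ratio of the 78 genes in blood (0.0329). Ndufc2, another accessory subunit, had the smallest ratio in heart (0.0508). Ndufb9 had the largest in both organs, at 251, 225, 247 and 237 CPM in blood neutrophil-like against 264, 277, 317 and 278 in classical monocyte-like sums, which do not overlap. Ndufa13 was at 177 ± 39.7 CPM (SD, n = 4) in blood neutrophil-like sums and highest in blood NK cell-like ones (439).

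The 4 complex II genes, which also serve the citric acid cycle, did not share a pattern. Sdhb was at 162, 138, 158 and 167 CPM in blood classical monocyte-like and 62.1, 32.9, 64.1 and 11.3 in neutrophil-like sums. The last of these neutrophil-like sums held only 46 barcodes. Sdha was highest in blood B cell-like sums and Sdhc in heart macrophage-like sums, at 65.6, 60.1, 53.5 and 51.3 CPM. Sdhd, the other membrane anchor, was at 18.03 CPM in blood neutrophil-like and 32.9 in classical monocyte-like sums, and its lowest class mean was in heart nonclassical monocyte-like sums (14.1). In complex III, Uqcrh stood at 191 CPM in blood neutrophil-like and 576 in classical monocyte-like sums, and Uqcrq at 115 and 332.

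Complex IV and V split by gene. Cox4i1 was at 409, 350, 393 and 248 CPM in blood neutrophil-like sums and at 1010, 970, 963 and 953 in classical monocyte-like ones. Cox8a was closer, at 565 and 843 CPM on average, and its lowest class mean was in heart nonclassical monocyte-like sums. Ndufa4 was at 63.7 CPM in blood neutrophil-like and 431 in classical monocyte-like sums. In complex V, Atp5l, a subunit of the membrane part, was at 504, 479, 525 and 474 CPM in blood neutrophil-like sums, above all 4 heart macrophage-like sums (324 to 373), its lowest class. Atp5e, the epsilon subunit, averaged 298 CPM in blood neutrophil-like and 709 in blood type 2 dendritic cell-like sums.

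The 3 genes for the same ring subunit c protein, Atp5g1, Atp5g2 and Atp5g3, were among the lowest in neutrophil-like sums, at 15.7, 14.8 and 13.8 CPM in blood against 252, 309 and 137 in classical monocyte-like sums. Their mature proteins are identical, and only the import sequences differ. Atp5g2 made up 58.9% of the UMIs of the 3 genes in heart B cell-like and 59.8% in blood B cell-like sums, against 42.7% in heart macrophage-like sums. It was the only one of the 78 genes whose highest class mean was in heart B cell-like sums (490 CPM).

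**Figure D2:**
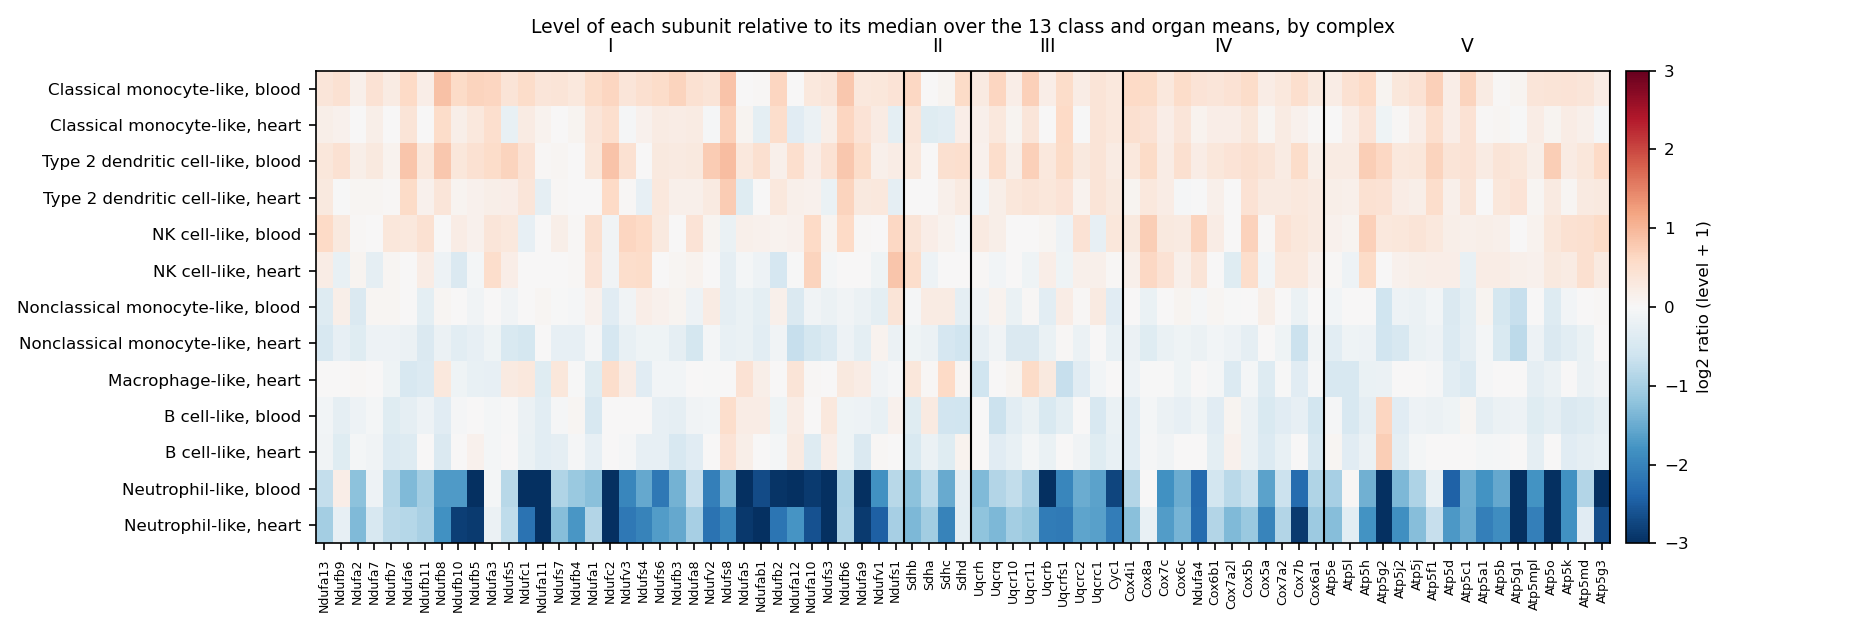
Mean CPM of each of 77 subunit genes by class and organ as log2 ratio to the gene's own median over 13 class and organ means (1 CPM added, colours end at 3 and -3), with genes in columns ordered by complex. A neutrophil-like row is the lowest for 72 of 77 genes, while Ndufb9, Atp5l and Cox8a stand near the other classes.

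Among the classes compared, the 13 subunits encoded by mitochondrial DNA were also lowest in blood neutrophil-like sums. They were highest in B cell-like and macrophage-like sums rather than in classical monocyte-like ones. Their summed level was 4627 ± 1380 CPM in blood neutrophil-like and 13460 ± 3412 in heart neutrophil-like sums, 14800 in blood and 16270 in heart classical monocyte-like sums, 26370 in macrophage-like sums and 27500 to 29760 in B cell-like sums. The ratio of mitochondria-encoded to nuclear transcripts was 0.714 in blood neutrophil-like, 0.763 in blood classical monocyte-like, 1.94 in heart macrophage-like, 2.12 in blood B cell-like and 2.39 in heart neutrophil-like sums. In neutrophil-like sums the mitochondria-encoded level was 6.88, 1.99, 2.07 and 2.72 times higher in heart than in blood of the same mouse, whereas the nuclear level was 0.753, 0.896, 0.988 and 0.882 times that of blood. The blood barcodes of this class all lay in 1 cluster (cluster 0), and the heart ones lay in another (cluster 11) apart from 2 to 4 barcodes per mouse, so the organs are compared here across different clusters. The barcode filter caps the mitochondrial share at 10%. Heart endothelial-like barcodes, outside the classes compared, held more of these 13 subunits than the means above. They were at 44030, 34350 and 40380 CPM in control replicate 2 and stroke replicates 1 and 2 (57, 60 and 23 barcodes). Control replicate 1 had 1 such barcode.

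Heart was compared with blood inside 6 classes, with the mouse as a block, over all genes that passed the low-count filter. The mouse-wise ratio of the summed level, heart over blood, was 0.866 ± 0.023 in classical monocyte-like, 0.889 ± 0.0144 in nonclassical monocyte-like, 0.875 ± 0.0522 in type 2 dendritic cell-like, 0.88 ± 0.0969 in neutrophil-like and 0.903 ± 0.0398 in NK cell-like sums, below 1 in all 20 of these pairs. It was 1.08, 1.07, 0.963 and 1.06 in B cell-like sums. These ratios use raw totals. The tests below use TMM scaling, which sets the median gene near 0. Raw totals moved the median of all genes by -0.23 (log2) in neutrophil-like, -0.13 in both monocyte-like, -0.12 in B cell-like, -0.11 in type 2 dendritic cell-like and -0.02 in NK cell-like sums. Median log2 differences of the subunit genes were 0.18 in B cell-like and 0.02 for neutrophil-like sums, -0.05 in nonclassical monocyte-like, -0.09 in classical monocyte-like, -0.11 in type 2 dendritic cell-like and -0.13 in NK cell-like sums. On raw totals they were 0.06, -0.20, -0.18, -0.22, -0.22 and -0.15 in the same order, so the neutrophil-like median changes sign.

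In 4 of the 6 classes heart and blood barcodes were spread differently over clusters, the neutrophil-like class among them. Classical monocyte-like barcodes lay in cluster 1 in blood (244, 342, 387 and 68) with a few in cluster 18, and in cluster 13 in heart (31, 85, 71 and 105). The 6, 12, 4 and 3 heart barcodes in cluster 1 held 18990, 20160, 20440 and 22110 CPM, against 17800, 20100, 20420 and 19830 in blood barcodes of that cluster, and cluster 13 held 15590 to 17310. Nonclassical monocyte-like barcodes lay in cluster 5 in blood and mostly in cluster 8 in heart. In cluster 5 the 19, 42, 55 and 40 heart barcodes held 13960, 13990, 14110 and 12350 CPM against 12560, 14610, 14600 and 13670 in blood, which overlap, while heart barcodes of cluster 8 held 10890 to 12700. The lower heart level of both monocyte-like classes thus lay mainly in clusters 13 and 8, which hold few or no blood barcodes, and organ and cluster cannot be told apart there. B cell-like barcodes lay in clusters 6, 7 and 9 in both organs in different proportions. Mean levels in heart and blood were 15100 and 15430 CPM in cluster 6, 12160 and 12320 in cluster 7 and 11780 and 12120 in cluster 9. The higher heart level of the whole class was thus not seen in these means. Single mice differed in direction: heart was higher in stroke replicate 2 in cluster 6, in both control replicates in cluster 7, and in control replicate 2 and stroke replicate 2 in cluster 9. It was lower in the other pairs, and some of these sums rest on as few as 8 barcodes. NK cell-like and type 2 dendritic cell-like barcodes formed 1 cluster each, shared by both organs. Single genes were not tested within clusters, so the calls below compare whole classes.

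Few single subunit genes passed the test. By edgeR's quasi-likelihood test with Benjamini-Hochberg adjustment, 10 of 433 tests of subunit genes passed 0.05, and 47 (10.9%) had an unadjusted p below 0.05, against 25% of all gene tests in these comparisons. DESeq2 called none of them. In B cell-like sums 2 of 78 were higher in heart, where 10.4% of all genes tested were called. In classical monocyte-like sums 1 of 78 was lower (18.4% of all genes called), in NK cell-like sums 1 of 74 was lower (6.46%), in nonclassical monocyte-like sums 3 of 77 were lower (16.7%), and in neutrophil-like sums 3 of 49 were higher (22.5%). Type 2 dendritic cell-like sums gave 0 of 77 by edgeR, with 2 at an unadjusted p below 0.05 and 0 by DESeq2 (6.6% of all genes called by edgeR). Without stroke replicate 2 that class gave 1, Ndufs5.

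In B cell-like sums both calls were complex IV subunits. Cox6c, an accessory subunit, was at 261, 269, 351 and 312 CPM in blood and 322, 381, 362.5 and 355.5 in heart (log2 fold change 0.37, SE 0.114, adjusted p = 0.0444). Cox7b, another accessory subunit, was at 170, 181, 261 and 199 CPM in blood and 230, 221, 285 and 232 in heart (0.38, SE 0.119, adjusted p = 0.0469). For both genes the organs overlapped, but heart was higher in each of the 4 mice. Of the 78 genes 66 had a positive difference on the TMM scale, among them all 12 complex IV and all 17 complex V genes tested. On raw totals 50 were positive. The median over all genes tested was -0.005 on the TMM scale and -0.125 on raw totals. The 3 clusters of this class took different shares of it in heart and blood, and the summed level was not higher in heart within any of them on average. The part of these proportions in the 2 calls was not tested. The 2 calls were lost without control replicate 1, without control replicate 2, and without stroke replicate 1, where Ndufa4 alone was called.

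In classical monocyte-like sums the called gene was Ndufs5, an accessory complex I subunit on the intermembrane space side. It was at 130, 153, 174 and 153 CPM in blood and 81.8, 113, 88.8 and 118 in heart (log2 fold change -0.48, SE 0.14, adjusted p = 0.0104). All 4 heart values lay below all 4 blood values. They come from different clusters, with cluster 13 holding most heart barcodes and cluster 1 most blood barcodes. Without stroke replicate 1 the difference was -0.34 with adjusted p = 0.215 and 0 subunit genes were called, while 4 were called without control replicate 1. Of 36 complex I genes 2 had a positive difference on the TMM scale, where the median over all genes tested was -0.018. On raw totals 22 subunit genes were lower in heart in this class and 0 higher. Raw totals moved the median of all genes by -0.131 here, and the share of all genes called on them is not given beside the 22.

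Nonclassical monocyte-like sums gave 2 complex I genes and 1 complex IV gene. Ndufb9 was at 211, 260, 267 and 207 CPM in blood and 190.5, 148, 189 and 177 in heart (log2 fold change -0.35, SE 0.118, adjusted p = 0.0289). Cox7b was at 170, 218, 232 and 240 CPM in blood and 152, 145, 169 and 155 in heart (-0.34, SE 0.122, adjusted p = 0.0417). Neither gene's organs overlapped. Most heart barcodes lay in cluster 8 and nearly all blood barcodes in cluster 5. Ndufc1, a small accessory subunit, was at 85.0, 123, 142.5 and 103.6 CPM in blood and 64.4, 95.1, 85.8 and 66.5 in heart, overlapping but lower in heart in each mouse (-0.44, SE 0.162, adjusted p = 0.0498). Without control replicate 2, and without stroke replicate 1, 0 subunit genes were called, and without stroke replicate 2 Ndufb9 alone was. Without control replicate 1 Ndufc1 lost its call. On raw totals, which moved the median of all genes by -0.13 in this class, 8 were lower. In NK cell-like sums Ndufb10, an accessory complex I subunit, was at 204.5, 182, 194 and 217 CPM in blood and 121, 92.95, 129 and 160 in heart, with no overlap (-0.67, SE 0.20, adjusted p = 0.0368), and its call was lost on leaving out any of the 4 mice (adjusted p = 0.064 to 0.183).

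In neutrophil-like sums the 3 calls were Atp5d, the delta subunit of the ATP synthase stalk, Atp5md, a small subunit of its membrane part, and Ndufa6, an accessory complex I subunit. Atp5d was at 59.7, 44.6, 66.9 and 33.8 CPM in blood and 106, 91.6, 79.9 and 58.8 in heart (log2 fold change 0.88, SE 0.248, adjusted p = 0.0168). Atp5md was at 96.2, 65.8, 64.1 and 56.4 CPM in blood and 155, 82.5, 92.8 and 82.3 in heart (0.76, SE 0.217, adjusted p = 0.0173). Ndufa6 was at 91.3, 51.7, 116 and 56.4 CPM in blood and 122, 96.2, 152 and 67.6 in heart (0.73, SE 0.214, adjusted p = 0.0209). The organs overlapped for all 3, with heart higher in each mouse, and cluster 11 held nearly all heart barcodes and no blood barcode. In that order, the blood values of stroke replicate 2 rest on 3, 5 and 5 UMIs. The heart values of control replicate 1 rest on 13, 19 and 15. On raw totals the split was 0 higher and 4 lower, and the 4 were other genes (Atp5f1, Atp5l, Cox4i1 and Ndufb9), so the direction in this class depends on the scaling. Without control replicate 2 Atp5md alone was called, and without control replicate 1 Atp5d and Ndufa6 were. The heart sum of stroke replicate 1 held 11600 CPM of haemoglobin and other erythroid genes against 4.58 to 64.6 in the other 3 heart sums, and without that mouse Atp5d alone was called. When only hashtag doublets were removed, 156 more heart barcodes joined the class, UMIs per barcode rose from 2159, 2416, 2540 and 2460 to 2967, 3638, 4389 and 4201, and 36 subunit genes were called, 35 of them higher in heart. The share of all genes called in that setting is not given beside the 36, so this count is not read as particular to the subunit genes. The part of doublets and of erythroid RNA in the 3 calls was not tested.

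**Figure D3:**
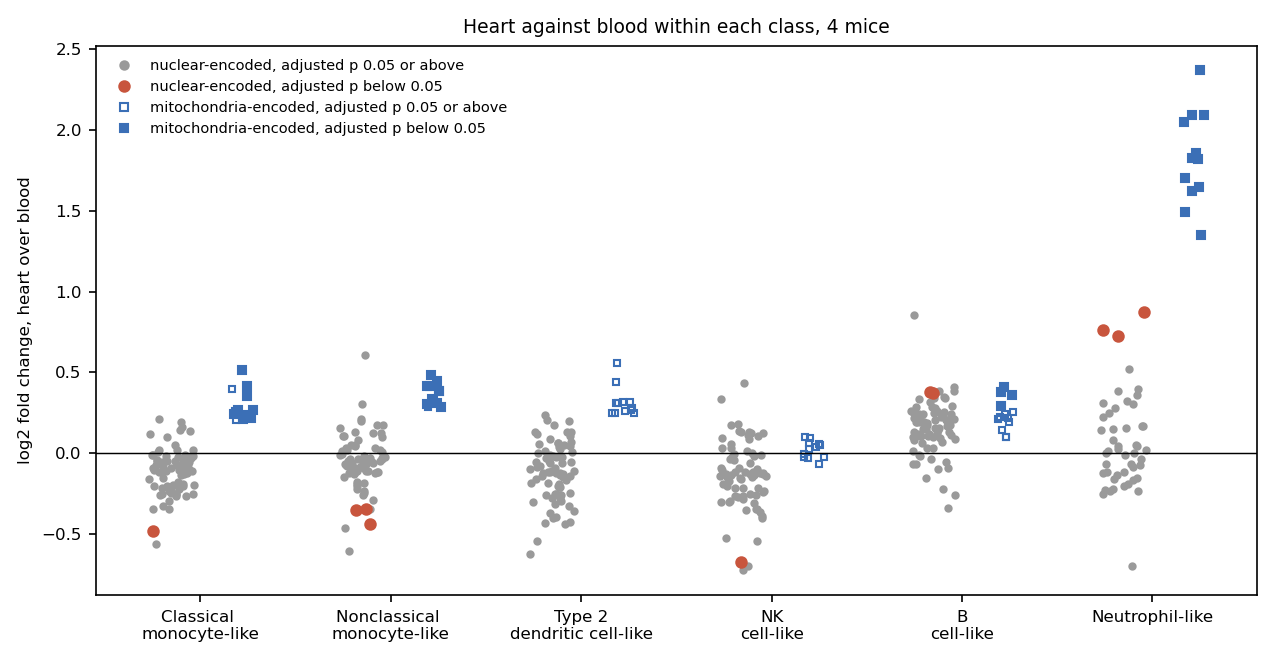
Log2 fold change, heart over blood, of each subunit gene in each of the 6 classes (TMM scale), 1 point per gene, with called genes marked and the mitochondria-encoded genes beside them. Nuclear genes centre between -0.13 and 0.18, while the mitochondria-encoded genes of neutrophil-like sums centre at 1.82.

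Related genes gave a different picture by list. Of the mitochondria-encoded subunits, 12 of 12 tested rose in heart neutrophil-like sums (median log2 difference 1.82), 11 of 13 in classical monocyte-like (0.26), 10 of 12 in nonclassical monocyte-like (0.36) and 4 of 13 in B cell-like sums (0.22), with 0 of 12 called by edgeR in NK cell-like and type 2 dendritic cell-like sums (0 and 4 at an unadjusted p below 0.05). The classical monocyte-like count was 4 without control replicate 2, 7 without control replicate 1 or stroke replicate 2, 1 on raw totals and 0 by DESeq2, and the B cell-like count was 0 without control replicate 1 or stroke replicate 1, 1 without control replicate 2, 0 on raw totals and 1 by DESeq2. The neutrophil-like count was within 1.5 times of 12 in all alternatives run. Among 50 assembly factors, classical monocyte-like sums gave 1 higher and 2 lower of 23 tested: Ttc19, a complex III factor, at 1.33, and the complex I factors Timmdc1 at -1.42 and Tmem126a at -0.58. Nonclassical monocyte-like sums gave 1 higher, the copper chaperone Cox17 (0.53), and 1 lower, Cox16 (-0.44), of 19. In the other 4 classes edgeR and DESeq2 called 0, with 0 to 2 at an unadjusted p below 0.05. Of 16 genes of the citric acid cycle and pyruvate dehydrogenase, Dlst alone was called, at 0.56 in classical and 0.58 in nonclassical monocyte-like sums. Of 8 carrier and cytochrome c genes, Slc25a3, which brings phosphate to ATP synthase, was higher in heart neutrophil-like sums (1.16, adjusted p = 0.000655), the ADP/ATP carrier Slc25a5 in heart B cell-like sums (0.40) and cytochrome c itself, Cycs, in heart nonclassical monocyte-like sums (0.54). Of 12 biogenesis regulators, 2 to 8 passed the filter in a class and 0 were called by edgeR or DESeq2. At an unadjusted p below 0.05 there were 2 in classical monocyte-like and 1 in type 2 dendritic cell-like sums.

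Heart macrophage-like barcodes were divided into those with at least 1 UMI of Lyve1, Timd4 or Folr2, genes of resident cardiac macrophages, and the rest. A marker UMI is less likely to be read in a barcode of few UMIs, so the split can also follow depth. Resident-type barcodes numbered 118, 412, 517 and 395 and the others 78, 180, 205 and 185. The summed subunit level was 13280, 13950, 14630 and 13500 CPM in resident-type and 13500, 12470, 13720 and 12610 in other sums, which overlap. Of 79 subunit genes tested, 3 were higher in resident-type sums and 0 lower by edgeR, where 16.9% of all genes were called. Ndufb9 was at 183, 180.5, 176 and 129 CPM in other and 237.5, 209, 237 and 210 in resident-type sums (log2 fold change 0.38, SE 0.097, adjusted p = 0.00489). Ndufa4 was at 273, 265, 294 and 250 in other and 323, 358, 367 and 334 in resident-type sums (0.31, SE 0.082, adjusted p = 0.00645). Neither gene's 2 sets of sums overlapped. Sdhc was at 60.4, 48.5, 35.5 and 34.1 in other and 68.9, 63.7, 59.2 and 57.2 in resident-type sums, higher in each mouse but overlapping (0.49, SE 0.157, adjusted p = 0.0275). All 3 calls were lost without stroke replicate 1, which left 0 subunit genes called. Without stroke replicate 2 only 1 was called, and DESeq2 called 0 with all mice. Cardiomyocyte genes summed to 180 to 252 CPM in resident-type and 303 to 500.4 in other sums, and 9 of 10 tested were lower in resident-type sums. Platelet genes, of which Pf4 is also a resident macrophage gene, summed to 2888 to 3641 and 1246 to 1600 CPM. Their part in the 3 calls was not tested, and neither was the part of depth or of the clusters within this class.

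Some complex IV subunits have a muscle isoform beside the ubiquitous one, and in these samples the level of the 3 heart muscle isoforms was far higher in cardiomyocyte-like barcodes than in heart macrophage-like ones. Cox6a2, Cox7a1 and Cox8b take the place of Cox6a1, Cox7a2 and Cox8a, in whole or in part, in mouse heart muscle. Cox6a2 lies at 7:128205435-128206387, Cox7a1 at 7:30184144-30186078 and Cox8b at 7:140898945-140900446, and their partners Cox6a1 at 5:115345642-115348981, Cox7a2 at 9:79755361-79759878 and Cox8a at 19:7215153-7217616 (GRCm38). The 150 bases before the RefSeq start (GRCm38.p6, strand of the gene) are shown for the 3 ubiquitous genes and for the 2 muscle genes with an entry, because the share of each pair differed between classes. Capitals mark matches to the NRF1 motif (GCGCA, any base, then GCGC) and the ETS core CCGGAAG on either strand.
Cox6a1 (5:115348959-115349108, minus strand, ubiquitous): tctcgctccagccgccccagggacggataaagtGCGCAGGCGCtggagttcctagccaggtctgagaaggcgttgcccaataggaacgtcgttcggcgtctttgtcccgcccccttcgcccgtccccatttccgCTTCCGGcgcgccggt
Cox7a2 (9:79759854-79760003, minus strand, ubiquitous): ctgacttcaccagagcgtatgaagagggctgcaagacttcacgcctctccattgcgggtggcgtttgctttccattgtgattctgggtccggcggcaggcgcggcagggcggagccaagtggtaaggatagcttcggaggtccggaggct
Cox8a (19:7217617-7217766, minus strand, ubiquitous): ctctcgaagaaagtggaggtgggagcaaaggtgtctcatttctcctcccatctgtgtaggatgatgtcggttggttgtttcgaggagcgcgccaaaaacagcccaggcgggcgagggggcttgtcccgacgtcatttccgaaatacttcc
Cox7a1 (7:30184021-30184170, plus strand, muscle): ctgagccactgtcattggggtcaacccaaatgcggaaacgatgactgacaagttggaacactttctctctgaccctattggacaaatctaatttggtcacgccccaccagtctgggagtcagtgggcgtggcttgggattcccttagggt
Cox8b (7:140900447-140900596, minus strand, muscle): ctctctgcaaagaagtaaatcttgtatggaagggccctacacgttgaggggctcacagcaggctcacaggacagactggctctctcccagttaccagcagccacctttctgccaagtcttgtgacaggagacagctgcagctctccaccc

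Cox6a1 held both motifs in this window, and the other 4 windows held neither. Their GC content was 66.0% for Cox6a1, 60.7% for Cox7a2, 55.3% for Cox8a and Cox8b and 52.0% for Cox7a1. Over the window from 250 bases before to 50 after the start, RefSeq held 68 of the 86 genes. The NRF1 motif was present in 16 of them (23.5%) and in 4.78% of all 27025 promoters of that length, the ETS core in 16 (23.5%) and 9.12%, and the YY1 motif AANATGGCG in 8 (11.8%) and 2.51%, both strands searched and overlaps between motifs allowed. The MEF2 motif was present in 0 of 68 and in 0.566% of all promoters. Cox8a held the ETS core in this longer window, though not in the 150 bases shown. Cox7a2, Cox7a1 and Cox8b held neither the NRF1 motif nor the ETS core in it. A match is a string of letters, not a measured binding site.

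The 16 cardiomyocyte-like barcodes numbered 2, 9, 3 and 2 per mouse, so their values rest on few UMIs. Cox6a2 was at 3668, 3279, 3082 and 4290 CPM there, from 184 of its 401 UMIs, and at 7.77, 19.9, 12.1 and 11.2 CPM in heart macrophage-like sums. It made up 95.7% to 100% of the Cox6a pair in cardiomyocyte-like barcodes. Cox7a1 was at 1467, 2366, 1961 and 2340 CPM in cardiomyocyte-like and 9.50, 12.8, 11.3 and 7.59 in macrophage-like sums. Cox8b was at 1320, 1625, 1681 and 1365 CPM in cardiomyocyte-like and 4.32, 10.3, 2.90 and 4.34 in macrophage-like sums. The ubiquitous partners of these 2 genes stayed present in cardiomyocyte-like barcodes, above their macrophage-like levels. Cox7a2 was at 1907, 1711, 1961 and 1950 CPM against 220, 215, 243 and 240. Cox8a was at 2641, 941, 1261 and 1365 CPM against 478, 548, 627 and 577. Atp5g1 made up 68.4% to 78.7% of the UMIs of its 3-gene family in cardiomyocyte-like barcodes and 36.8% over all heart barcodes. For none of the 3 muscle isoforms did the values of these 2 classes overlap.

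Heart macrophage-like barcodes nevertheless held 35.4% of all Cox6a2 UMIs (142), 39.2% of Cox7a1 UMIs (111) and 38.3% of Cox8b UMIs (57), in a class of 2090 barcodes. Cardiomyocyte genes were read in the same sums at 318.5, 310, 222 and 215 CPM, against 112100, 111200, 138600 and 131200 CPM in cardiomyocyte-like sums. Cox8b had 0 UMIs in blood of all 4 mice, which allows up to 0.694, 0.76, 0.552 and 0.409 CPM (3 UMIs, counting error only). Cox6a2 had 9, 19, 13 and 2 UMIs in blood, of which 32 lay in 5 NK cell-like barcodes and 18 in a single one. The source of the muscle isoforms in macrophage-like barcodes was not tested.

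Other isoform pairs were nearly all of the common form. Cox4i2, the hypoxia and lung isoform of Cox4i1, had 18 UMIs in all, 12 in heart macrophage-like barcodes. Ndufa4l2, a hypoxia-regulated relative of Ndufa4, had 34, of which 27 lay in 11 heart barcodes of unnamed clusters. Cox6b2, a form of Cox6b1 known from testis, reached its highest share of the pair in type 2 dendritic cell-like sums, 5.75%, 5.68%, 5.48% and 4.11% in heart, and stood at 1.72% in heart macrophage-like sums. Cox7a2l, which joins complexes III and IV into supercomplexes, was at 418 CPM in blood classical monocyte-like, 178 in blood neutrophil-like and 123 in heart neutrophil-like sums.

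**Figure D4:**
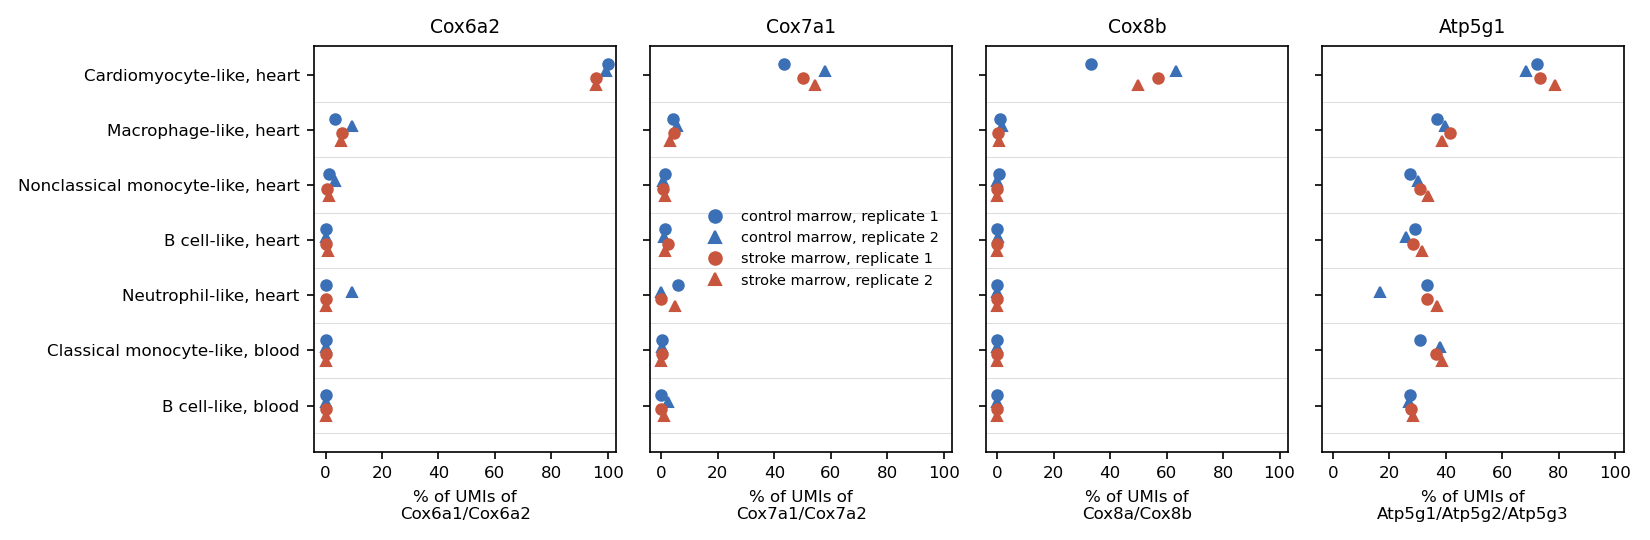
Share (percent of the UMIs of a gene pair or family) of Cox6a2, Cox7a1, Cox8b and Atp5g1 in each mouse, by class and organ. Cox6a2 takes 95.7% to 100% of its pair in cardiomyocyte-like barcodes, and Atp5g1 takes 68.4% to 78.7% of its family there.

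The design asks whether marrow of stroke donors gives rise to blood and heart myeloid cells that differ from those of control marrow. No subunit gene was called in any of the 15 comparisons of stroke with control marrow. The summed level in all heart barcodes was 13810 and 14520 CPM with control marrow and 14070 and 13270 with stroke marrow. In all blood barcodes it was 14400 and 17370 against 16990 and 12870, where the last value is the mouse with mostly B cell-like blood barcodes. In macrophage-like sums it was 13360 and 13610 against 14420 and 13280. The groups overlapped in all 3.

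By edgeR, 0 of 1109 tests passed, the smallest adjusted p was 0.492, 26 tests (2.34%) had an unadjusted p below 0.05 against 4.4% of all gene tests, and DESeq2 also called 0. The share of all genes called was 0.0242% over all heart barcodes, 0.0559% in heart B cell-like, 0.0703% in heart classical monocyte-like and 0.0215% in heart type 2 dendritic cell-like sums, and 0% in the heart macrophage-like, neutrophil-like, NK cell-like and nonclassical monocyte-like sums. In blood it was 0.0651% in B cell-like, 0.0114% in classical monocyte-like, 0.0209% in neutrophil-like and 0.0176% in nonclassical monocyte-like sums, and 0% over all blood barcodes and in NK cell-like and type 2 dendritic cell-like sums. A share of 0 called genes is thus near the background in every comparison. The median SE of a subunit gene's log2 difference was 0.122 to 0.366, so small changes were not detectable with 2 mice per group.

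The medians of the subunit genes ran from -0.07 to 0.28. The highest was in heart type 2 dendritic cell-like sums, where 64 of 76 were positive and 6 had an unadjusted p below 0.05. There Atp5g1 was at 216.5 and 263.5 CPM with control and 418 and 369 with stroke marrow (log2 fold change 0.72, SE 0.264, adjusted p = 0.492), and Uqcr11, a small complex III subunit, at 143 and 167.5 against 267 and 229 (0.68, SE 0.261, adjusted p = 0.534). The groups did not overlap for either gene, but both were picked for small p, and these sums rest on 66, 63, 23 and 30 barcodes.

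In the other heart sums the genes of smallest p, 2 per comparison, were as follows. Genes picked for small p tend to lack overlap between groups of 2 mice, and the share of all genes without overlap was not counted. Over all heart barcodes Uqcrfs1, the Rieske iron-sulfur protein of complex III, was at 79.95 and 81.0 CPM with control and 67.3 and 62.0 with stroke marrow (log2 fold change -0.31, adjusted p = 0.607). Cox8b was at 4.15 and 14.5 against 3.66 and 3.39 (-1.44, adjusted p = 0.621), and at -0.86 (adjusted p = 0.72) without the cardiomyocyte-like barcodes. The cardiomyocyte genes summed to 335 and 788 against 289 and 245 CPM in the same sums, and their part in the Cox8b value was not tested. In macrophage-like sums Cox8b was at 4.32 and 10.3 against 2.90 and 4.34 (-1.18, adjusted p = 1), with groups that overlap. Atp5k, the e subunit of ATP synthase, was at 143 and 174 against 137 and 100.5 there (-0.42, adjusted p = 1).

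In heart B cell-like sums Ndufa9, an accessory complex I subunit, was at 43.7 and 33.6 CPM against 23.1 and 18.4 (-0.95, adjusted p = 0.755), and Atp5k at 114 and 140.1 against 87.4 and 95.6 (-0.48, adjusted p = 0.888). In classical monocyte-like sums 2 accessory complex I subunits led: Ndufb3 was at 72.7 and 113 against 159 and 146 (0.60, adjusted p = 0.841) and Ndufs4 at 141 and 145 against 95.8 and 108 (-0.51, adjusted p = 0.909). The groups of these 4 did not overlap, and all were picked for small p. In NK cell-like sums Cox8a was at 718 and 744 against 971 and 1026 (0.45) and Ndufs7, a core complex I subunit, at 74.6 and 85.8 against 152 and 125 (0.81, both adjusted p = 0.999). In nonclassical monocyte-like sums Ndufb4 was at 77.2 and 82.9 against 120.1 and 111 (0.52) and Atp5md at 113 and 144 against 107 and 93.5 (-0.38, both adjusted p = 1). In neutrophil-like sums Cox7a2 was at 131 and 73.3 against 188 and 112 (0.68) and Ndufb11, a complex I accessory subunit, at 81.6 and 87.0 against 126 and 115 (0.54, both adjusted p = 0.987). Among these 6, all picked for small p, the groups overlapped for Cox7a2 alone.

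In blood the leading genes were mostly others. Over all blood barcodes Ndufa12, an accessory complex I subunit, was at 50.6 and 48.1 CPM with control and 54.1 and 76.3 with stroke marrow (0.45, adjusted p = 0.966), and Sdhd at 34.2 and 24.6 against 24.8 and 13.1 (-0.60, adjusted p = 0.966), the latter with overlap. Without stroke replicate 1, which leaves the mouse of mostly B cell-like barcodes as the sole stroke sum, 4 subunit genes were called, among them Ndufa12 (0.70, adjusted p = 0.0307) and Sdhd (-1.10, adjusted p = 0.0128). Ndufs1, the large iron-sulfur subunit of complex I, led both in type 2 dendritic cell-like sums, at 16.6 and 21.0 against 37.2 and 62.5 (1.29, adjusted p = 1), and in classical monocyte-like sums, at 29.6 and 33.7 against 44.6 and 51.1 (0.52, adjusted p = 1). Beside it stood Cox7a2 in the former, at 201 and 242 against 332 and 328 (0.54, adjusted p = 1), and Ndufb2, a complex I accessory subunit, in the latter, at 79.2 and 107.5 against 120.2 and 136 (0.40, adjusted p = 1). Stroke values were above control values in both mice for all 4 of these, which were picked for small p.

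In blood NK cell-like sums Uqcrb, a small subunit near the ubiquinone site of complex III, was at 215 and 179.5 CPM against 144 and 119 (-0.54) and Ndufv2, a core complex I subunit, at 79.1 and 53.1 against 105 and 111 (0.69, both adjusted p = 0.999). In nonclassical monocyte-like sums Uqcrc2, a core subunit of complex III, was at 98.8 and 86.6 against 58.9 and 65.5 (-0.63) and Atp5k at 122 and 178.5 against 105.5 and 120 (-0.46, both adjusted p = 1). The groups did not overlap for any of these 4 genes, which were picked for small p. In neutrophil-like sums Atp5o, the stalk subunit that gives oligomycin sensitivity, had 25, 8, 6 and 0 UMIs (adjusted p = 1). In B cell-like sums Cox7b, at 170 and 181 against 261 and 199, and Cox6c, at 261 and 269 against 351 and 312, gave 0.44 and 0.40 (adjusted p = 0.662 and 0.67).

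The marrow difference was also compared between organs in the 6 classes by an interaction term, stroke minus control in heart less the same in blood. By edgeR 0 of 445 tests of subunit genes passed, 12 (2.7%) had an unadjusted p below 0.05 against 4.64% of all gene tests, and DESeq2 called 0. The share of all genes called was 0.0147% in classical monocyte-like, 0.0164% in type 2 dendritic cell-like and 0.114% in neutrophil-like sums and 0% in B cell-like, NK cell-like and nonclassical monocyte-like sums. Uqcrb in NK cell-like sums had the smallest adjusted p (interaction 1.16, adjusted p = 0.864), followed by Ndufb10 in neutrophil-like sums (1.91, adjusted p = 0.868), Atp5g1 in type 2 dendritic cell-like sums (0.95, adjusted p = 0.939) and Ndufa9 in B cell-like sums (-1.06, adjusted p = 0.96). Ndufs4 in classical monocyte-like sums (-0.60, adjusted p = 0.999) and Uqcrc2 in nonclassical monocyte-like sums (0.83, adjusted p = 1) led the other classes. The second gene in each class was Ndufs7 in NK cell-like (1.31), Atp5g2 in neutrophil-like (2.27), Ndufb11 in type 2 dendritic cell-like (0.71), Ndufa4 in B cell-like (-0.54), Ndufb3 in classical monocyte-like (0.59) and Ndufb4 in nonclassical monocyte-like sums (0.65), with adjusted p from 0.939 to 1. Both neutrophil-like terms rest on few UMIs. Ndufb10 had 61, 25, 29 and 3 in blood and 3, 2, 16 and 6 in heart. Atp5g2 had 30, 2, 13 and 0 in blood and 2, 1, 16 and 10 in heart. On leaving out a mouse the Atp5g2 term ran from 1.44 to 7.23. Median SEs of 0.241 to 0.515 limit what all these terms can show.

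**Figure D5:**
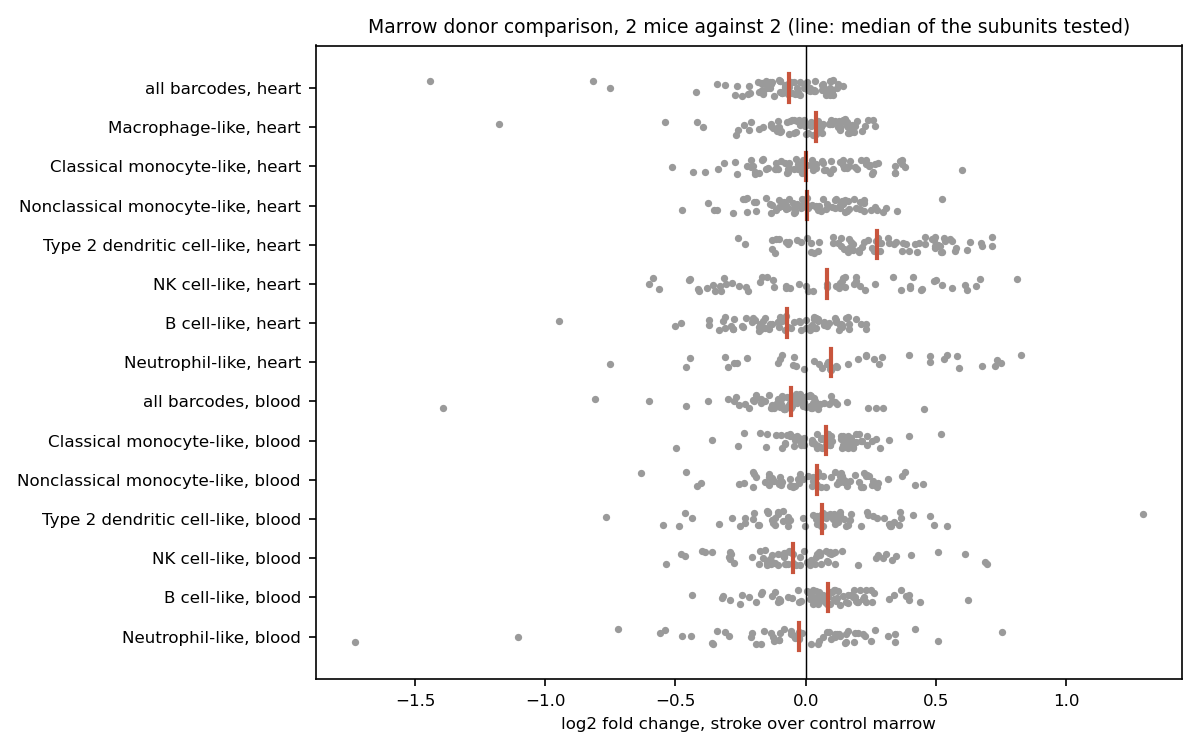
Log2 fold change, stroke over control marrow, of each subunit gene in the 15 comparisons (TMM scale), 1 point per gene and a bar at the median. Medians run from -0.07 to 0.28, the highest in heart type 2 dendritic cell-like sums, and no gene passed an adjusted p of 0.05.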

How the data were processed

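Deposited values are unnormalized UMI counts of genes and hashtags in each barcode. The authors produced them with Cell Ranger 7.1.0 on mm10, per the submitters' processing notes. Whether reads were subsampled on joining the 4 libraries is not stated there.

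All further steps were computed here. Organ was called per library with HTODemux (Seurat 5.3.0, quantile 0.99), which removed 169 to 299 barcodes per library with both hashtags. A barcode needed 200 genes and no more than 10% of its UMIs from mitochondrial genes, and the top 6% of Scrublet scores per library were removed, because automatic thresholds were uneven (0.155 to 0.52, with 1 to 101 calls). Leiden clusters (scanpy 1.11.5, leidenalg 0.10.2, resolution 1, 2000 variable genes without the subunit genes, 30 components, 20 neighbours) were named from marker lists at a mean z of at least 1 with an unrelated class at most at 1.2, and 0.296% to 4.71% of barcodes of an organ and mouse stayed unnamed. UMIs of a class were summed within mouse and organ where each mouse had at least 20 barcodes. Tests used edgeR 4.0.16 in R 4.3.3 (quasi-likelihood, TMM, filterByExpr, Benjamini-Hochberg 0.05 over all genes), with the mouse as a block between organs and within macrophages, and DESeq2 1.42.0 as an alternative. CPM use raw totals without 2 transgene features.

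On simulated counts, 2-fold changes were recovered in 79% of genes for the organ test in classical monocyte-like sums, 67% for the marrow test in heart macrophage-like sums, 21% for the interaction in classical monocyte-like sums and 83% for the macrophage split, and 1.5-fold changes in 42%, 17%, 2% and 57%. A simulated gene had a single mean scaled by library size and the trended dispersion, with no mouse effects. The changed genes were drawn at random from all genes, so these rates do not give the power for the subunit genes.

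The genes named are the 2 most abundant of each complex, the 4 Sdh genes, tissue isoforms with their partners, called genes, and the 2 of smallest p where none was called. A gene that this rule selects is not reported here and is left out of the heat map. Ndufa11 and Ndufc2, and genes called under an alternative alone, were named after their values were seen. The subunit genes and the gene lists were chosen with earlier results of these data known. Intervals from counts cover counting error only. Promoters are RefSeq's. Protein sequences were not used here.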

Additional observations from a re-analysis of the deposited data

Results flagged for a closer look

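Muscle isoforms were also read in barcodes left out of all comparisons because more than 10% of their UMIs were mitochondrial (30, 46, 63 and 153 barcodes). These results are given because the signal lies outside the data compared and above the level that a count of 3 UMIs represents in the same sum. Cox6a2, the muscle form of Cox6a1, was at 438 CPM in control replicate 2, 234 in stroke replicate 1 and 33.2 in stroke replicate 2, where 3 UMIs stand for 62.6, 37.0 and 16.6 CPM. Cox7a1 was at 83.4 CPM in control replicate 2 and 123 in stroke replicate 1. Cox8b was at 104.3 CPM in control replicate 2 and 98.6 in stroke replicate 1. In control replicate 1 none of the 3 exceeded 3 UMIs (51.5 CPM). Cardiomyocyte genes summed to 1510, 7530, 4339 and 398 CPM in these barcodes, highest in the 2 mice with the highest Cox6a2. Their part in the isoform values was not tested.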

How the results depend on the processing

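Calls of single subunit genes between organs were few and changed with the processing. The share of all genes called in each alternative is not set beside the counts below, so they are not read as particular to the subunit genes. DESeq2 gave 0 in all 6 classes and in the macrophage split. Raw totals gave 0 in B cell-like, 22 in classical monocyte-like, 2 in NK cell-like and 8 in nonclassical monocyte-like sums, all lower in heart. Without the mouse block the counts were 1 in neutrophil-like, 0 in B cell-like and 0 in nonclassical monocyte-like sums and 1 in the macrophage split. Scrublet's automatic thresholds gave 6 in classical monocyte-like, 5 in neutrophil-like, 2 in NK cell-like and 5 in nonclassical monocyte-like sums. Removing hashtag doublets alone gave 36 in neutrophil-like and 1 in nonclassical monocyte-like sums. Without the low-count filter nonclassical monocyte-like sums gave 0. A mitochondrial limit of 20% gave 1 in B cell-like sums, organ by hashtag share gave 0 in B cell-like and 0 in nonclassical monocyte-like sums, and Leiden resolution 2 gave 0 and 5. Leaving out a mouse gave 0 to 2 in B cell-like, 0 to 4 in classical monocyte-like, 1 to 4 in neutrophil-like, 0 to 0 in NK cell-like, 0 to 2 in nonclassical monocyte-like and 0 to 1 in type 2 dendritic cell-like sums, and 0 to 4 in the macrophage split. Of the 130 alternative values of the 10 calls between organs (9 genes, with Cox7b called in 2 classes), 65 lost the call and all kept their direction. Beyond the construction of each alternative, the causes were not tested.

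Stroke against control gave 0 subunit genes in all alternatives run but 2: over all heart barcodes without the low-count filter there were 2 (Cox8b and Cox6a2), and over all blood barcodes the range on leaving out a mouse was 0 to 4. With mitochondria-encoded and ribosomal protein genes out of the total, summed levels were 16560 CPM in all heart and 19040 in all blood barcodes. By class they were 15630 in macrophage-like, 20320 and 23550 in heart and blood classical monocyte-like, 14120 and 15940 in nonclassical monocyte-like, 21000 and 24370 in type 2 dendritic cell-like, 19080 and 21540 in NK cell-like and 19590 and 18230 in B cell-like sums. Both neutrophil-like values moved by less than their spread and stayed the lowest.

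Replicate numbers are shared by the marrow groups, but nothing in the labels says that they pair mice. Deviations of same-numbered mice correlated at -0.342 to 0.075. The fit with the replicate number as a block gave 0 subunit genes in each of the 15 comparisons. With numbers crossed, where the correlation was below -0.1, all heart, all blood and blood type 2 dendritic cell-like sums gave 0 subunit genes and 11, 0 and 3 genes in all.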

Other observations

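Within heart macrophage-like barcodes, 4 clusters differed in the summed level of the nuclear subunit genes. The cluster led by Lyve1, Ltc4s and Folr2 held 13510 to 15420 CPM over the 4 mice and that led by Ccl12 and Ccl2 held 13760 to 14140. The cluster led by Arhgap22 and Cadm1 held 10900 to 12210, below all sums of these 2 clusters. It also had the fewest UMIs per barcode of the 4, at 0.71 of the typical barcode of its libraries against 1.2 to 1.25. The fourth cluster, led by Cxcl13 and Cd207, held 12390 to 14230 CPM. The part of depth in that difference was not tested. The unnamed heart cluster led by cell cycle genes such as Top2a and Mki67 held 16690 to 18840 CPM, from 7 to 12 barcodes per mouse.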
